A study of Mus musculus with 8 samples.

Results

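The mitochondrial genome of the mouse carries 37 genes, and all 37 were found among the 55487 genes of the count table. They were chosen by name alone, as every Ensembl identifier that the GENCODE M21 annotation gives a symbol beginning with mt-. Of these, 13 encode proteins, 2 encode the ribosomal RNAs of the organelle and 22 encode its transfer RNAs. By annotation 28 genes lay on the plus strand and 9 on the minus strand, the latter being mt-Nd6 and 8 tRNA genes.

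RNA-seq had been performed on 8 tumors grown under the skin of young female C57BL/6J mice from Lewis lung carcinoma (LLC) cells, a mouse lung cancer line, with each tumor taken 12 days after engraftment. In 4 tumors the injected cells were wild-type, and in 4 they carried a knock-out of Ago2 (ΔAgo2, labelled Ago2 knock-out), the Argonaute protein that cleaves RNA targets. The knock-out had been made with a lentiviral CRISPR guide and puromycin selection, and 1 clone was used for grafting, so clone and genotype cannot be told apart. Blood vessels, fibroblasts and immune cells of the host kept Ago2 in both groups, and all libraries came from 1 labelled batch. Nothing else was given to the mice of either group according to the labels.

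Library totals ran from 7903288 counts (wild-type replicate 4) to 268564145 (ΔAgo2 replicate 4), so that 3 counts, the limit that a count of 0 allows, corresponded to 0.430 and 0.0105 CPM. CPM is the count of a gene scaled to a library total common to all samples, here after TMM scaling, a correction of the totals for composition. Ago2 itself was read at 129.9, 195, 151.3 and 138 CPM in wild-type tumors and at 118, 355, 215 and 270.1 CPM in ΔAgo2 tumors (log2 fold change 0.64, SE 0.30, adjusted p = 0.205, edgeR quasi-likelihood test, Benjamini-Hochberg). Its transcript was thus not lower in the libraries labelled ΔAgo2, and a transcript count does not check a knock-out made by a guide. No list of markers particular to LLC cells was used here. Wild-type replicate 3 stood apart in skeletal muscle markers, and ΔAgo2 replicate 1 in adipocyte and macrophage markers; the values are given with the results they touch.

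The mitochondrial DNA is a small circle read almost completely from both strands. Transcription from the heavy-strand promoter gives 1 long precursor that holds both rRNAs, most tRNAs and all messages but mt-Nd6, whereas transcription from the light-strand promoter gives mt-Nd6, the remaining tRNAs and long stretches of antisense RNA. The precursors are cut at the tRNAs that punctuate them, and most of the messages receive short poly(A) tails. The 13 proteins are core subunits of complexes I, III, IV and V of the oxidative phosphorylation (OXPHOS) chain, whose other subunits are made from nuclear genes. Where the 2 strands pair, double-stranded RNA arises, and the RNase Pnpt1 with its helicase partner Supv3l1 removes it.

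Copies of mitochondrial DNA also sit in the nuclear chromosomes, and reads from the organelle and from such a copy can be the same letter for letter. Among the annotated transcripts, 10 nuclear pseudogenes shared at least 1 exact window of 100 bases, the read length, with a mitochondrial gene. Of these, 7 lay side by side on the minus strand of chromosome 1 (GRCm38, chr1:24611535-24616197, 4663 bases) and followed the mitochondrial stretch chrM:6381-11042 from mt-Co1 to mt-Nd4. In 5 of the 7 the copy was identical to the mitochondrial sequence over its whole length. The other 3 lay on chromosome 2.

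The starts of mt-Nd3 (a complex I subunit; plus strand, chrM:9459-9518) and of its copy Gm28438 (chr1:24613060-24613119, minus strand) show how little separates organelle and nucleus on chromosome 1. The capital marks T3C, counted from the first base of the mitochondrial gene, which was the only substitution in the 345 bases of the copy.
mt-Nd3: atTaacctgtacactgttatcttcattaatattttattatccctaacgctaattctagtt
Gm28438: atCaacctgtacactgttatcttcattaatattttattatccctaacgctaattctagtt

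The starts of mt-Co2 (a core subunit of complex IV; chrM:7013-7132, plus strand) and of its copies on chromosome 1 (Gm28661, chr1:24615446-24615565, minus strand) and chromosome 2 (Gm13341, chr2:22587843-22587962, minus strand) are shown because one copy is identical and the other is not. Capitals mark C25T and G57A, the differences of Gm13341 in this stretch.
mt-Co2: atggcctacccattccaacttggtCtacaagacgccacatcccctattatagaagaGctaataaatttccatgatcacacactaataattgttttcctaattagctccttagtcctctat
Gm28661: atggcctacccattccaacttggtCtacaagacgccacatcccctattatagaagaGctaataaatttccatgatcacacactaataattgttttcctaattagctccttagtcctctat
Gm13341: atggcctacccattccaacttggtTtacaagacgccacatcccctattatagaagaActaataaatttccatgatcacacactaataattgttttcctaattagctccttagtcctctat

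Some mitochondrial genes also share bases with each other, so that a read there belongs to both. The following stretches, written along the plus strand, hold the 43 bases shared by mt-Atp8 and mt-Atp6 (both complex V; chrM:7907-7989), the 7 bases shared by mt-Nd4l and mt-Nd4 (both complex I; chrM:10147-10193) and the 14 bases shared by mt-Nd5 and mt-Nd6 (both complex I, on opposite strands; chrM:13532-13585). Capitals mark the shared bases.
mt-Atp8/mt-Atp6: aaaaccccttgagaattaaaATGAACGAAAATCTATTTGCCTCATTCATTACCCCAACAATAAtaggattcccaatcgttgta
mt-Nd4l/mt-Nd4: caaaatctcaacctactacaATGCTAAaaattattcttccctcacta
mt-Nd5/mt-Nd6: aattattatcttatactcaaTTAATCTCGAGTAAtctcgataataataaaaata

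Mitochondrial genes took between 0.863% and 3.57% of all gene counts in a library, a 4.14-fold range. The share was 3.39%, 1.11%, 3.57% and 0.863% in the wild-type tumors (2.23% ± 1.45, SD, n = 4) and 0.919%, 2.02%, 2.78% and 1.67% in the ΔAgo2 tumors (1.85% ± 0.775, SD, n = 4). The wild-type tumors held both the highest and the lowest value, and all ΔAgo2 values lay between them. The difference of the means, −0.386 percentage points, was smaller than the SD of either group, and it was 0.0613 without wild-type replicate 3. In these bulk samples, fewer cells of a mitochondria-rich type and less mitochondrial RNA per cell cannot be told apart.

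Nearly all of this share came from the 13 messages. They took 3.32%, 1.08%, 3.51% and 0.822% of the wild-type libraries and 0.861%, 1.99%, 2.72% and 1.64% of the ΔAgo2 libraries, which was 93.7% to 98.6% of the mitochondrial counts. The rRNAs, which form the small (mt-Rnr1) and large (mt-Rnr2) subunits of the mitochondrial ribosome, took 0.0655%, 0.0317%, 0.0600% and 0.0403% of the wild-type libraries and 0.0575%, 0.0273%, 0.0610% and 0.0284% of the ΔAgo2 libraries. The kit enriched for polyadenylated RNA, and the study's methods describe a first alignment to a ribosomal RNA database. The part of either in the low rRNA share was not tested. The tRNA genes together took at most 0.000352% of a library. In every class the groups overlapped, and the classes did not rank the libraries alike, since ΔAgo2 replicate 1 had a message share close to the lowest but an rRNA share above the mean of both groups.

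**Figure D1:**
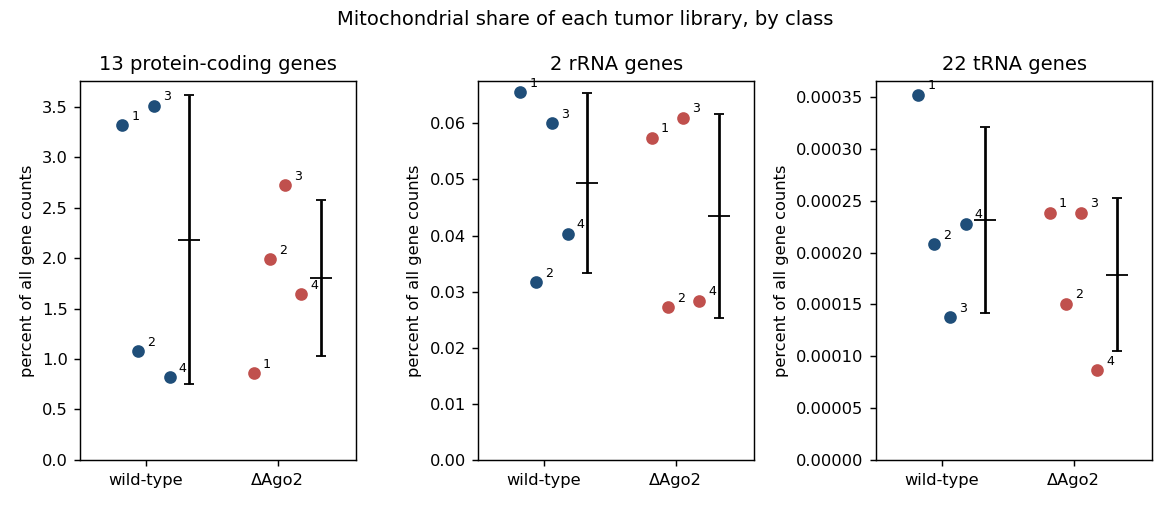
Percent of all gene counts (y axes, each from 0) taken by mitochondrial messages, rRNAs and tRNAs in wild-type and ΔAgo2 tumors; points are libraries with their replicate number, and bars are the mean ± SD of 4. In each panel the groups overlap, and for messages the wild-type libraries split into 3.32% and 3.51% against 1.08% and 0.822%.

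The low-share libraries came from both genotypes, and some of them differed from the others in depth and GC content. Wild-type replicates 2 and 4, at 1.11% and 0.863%, had the fewest counts (20683668 and 7903288) and the highest count-weighted GC content over nuclear genes, 52.8% and 53.1%, against 50.1% to 51.4% in the other 6 libraries. ΔAgo2 replicate 1, at 0.919%, was not shallow (53667597 counts) and had a GC content of 51.4%. The 15 mitochondrial messages and rRNAs are themselves poor in GC, from 31.9% to 41.1%. Wild-type replicate 3, with the highest share, had the most skeletal muscle signal, with 12 markers summing to 4277 CPM, yet wild-type replicate 1, with nearly the same share, had 301 CPM.

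The muscle list had 12 of 12 markers detected and summed to 301 to 4277 CPM in wild-type tumors and 58.0 to 245 CPM in ΔAgo2 tumors. In it edgeR called 1 marker lower, where 3.49% of all genes were called in either direction. All 12 log2 fold changes were below 0, with a median of −2.92. Of the 12, 11 (91.7%) had an unadjusted edgeR p under 0.05, against 26.7% of all genes. The 10 keratinocyte markers summed to 15.3 to 624 CPM and 509 to 971 CPM (1 called higher). All 10 had log2 fold changes above 0 (median 1.23), and 2 had an unadjusted edgeR p under 0.05. The 9 fibroblast markers summed to 4912 to 7252 CPM and 2287 to 4625 CPM, without overlap (1 called lower). Their log2 fold changes were below 0 in 7 and above 0 in 2, with a median of −0.64. An unadjusted edgeR p under 0.05 was found for 6 of the 9 (66.7%), against 26.7% of all genes. The 8 adipocyte markers summed to 22.6 to 223 CPM and 19.6 to 389.8 CPM, and the 10 macrophage markers to 2079 to 2577 CPM and 1769 to 3781 CPM, with none called in either list. No list had a marker at 0 in all libraries. ΔAgo2 replicate 1 held the highest adipocyte and macrophage sums. The part of these cell types, of depth and of GC content in the mitochondrial share was not tested.

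Per kb of gene, the messages fell into an abundant and a scarce set. The mean over the 8 libraries was 5491 CPM per kb for mt-Co1 (the catalytic subunit of complex IV), 3252 for mt-Cytb (the mitochondrial subunit of complex III), 2752 for mt-Nd1, 1327 for mt-Nd4, 1127 for mt-Nd2 and 939.6 for mt-Nd5, these 4 being subunits of complex I. Together these 6 messages held 99.1% to 99.7% of the mitochondrial protein-coding counts. The rRNAs followed, with 264 CPM per kb for mt-Rnr1 and 137 for mt-Rnr2.

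The scarce messages were mt-Nd6 at 46.6 CPM per kb, mt-Co2 at 33.1, mt-Co3 at 18.2, mt-Atp6 at 13.4, mt-Atp8 at 2.46, mt-Nd3 at 2.17 and mt-Nd4l at 2.05. The ranges over libraries of neighbours in this order overlapped in each case. Within each library, however, mt-Co2, mt-Co3, mt-Atp6 and mt-Atp8 kept this order. Between libraries mt-Nd6 and mt-Co2 changed places, as did mt-Atp8, mt-Nd3 and mt-Nd4l. The levels of mt-Co1 (2096 to 9614 CPM per kb) and mt-Co3 (4.39 to 29.3) were far apart. mt-Nd6 is the only message of the light-strand promoter. All but mt-Nd6 and mt-Atp8 in the scarce set were copied on chromosome 1 almost in full.

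Exact nuclear copies covered 99.5% of the 100-base windows of mt-Co2, 99.5% of mt-Atp6, 99.9% of mt-Co3, 97.6% of mt-Nd3 and 98.5% of mt-Nd4l. They covered 60.8% of mt-Nd4, 30.8% of mt-Co1, 3.20% of mt-Nd2 and 0% of the other messages and both rRNAs. mt-Atp8 had no annotated copy although it lies between genes that do, and the intergenic sequence of chromosome 1 was not used here. How reads with several equally good places were counted is not given in the sources used here, and the part of the copies in these levels was not tested.

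**Figure D2:**
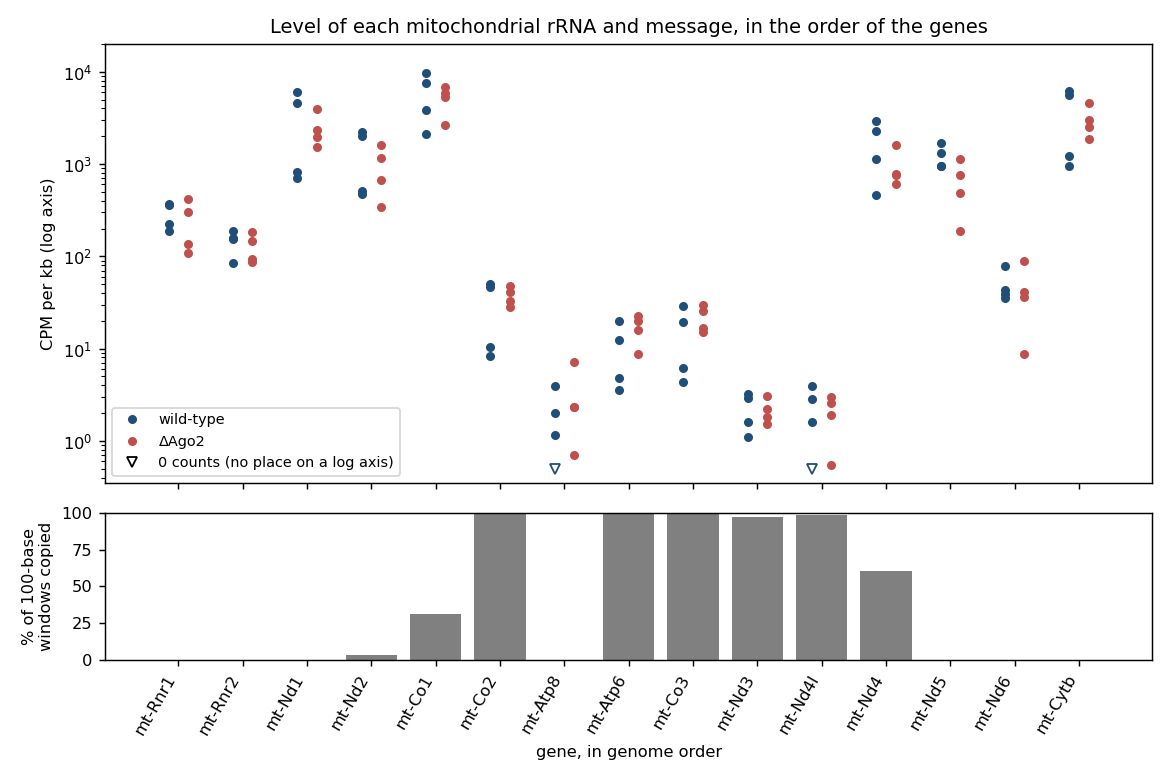
Upper panel: CPM per kb (log axis) of 2 mitochondrial rRNAs and 13 messages in each library, in the order of the genes, with open triangles for libraries with 0 counts; lower panel: percent of each gene's 100-base windows with an exact copy in an annotated nuclear gene. The 5 genes copied over more than 90% of their windows had means from 2.05 to 33.1 CPM per kb, against 939.6 or more for the 6 abundant messages.

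The copies were counted as genes of their own, and for the near-fully copied genes they drew a large and uneven part of the counts. Gm28661 held 59.5%, 19.8%, 55.2% and 70.4% of the counts of the pair with mt-Co2 in wild-type tumors and 35.9%, 45.3%, 48.0% and 18.4% in ΔAgo2 tumors. For the pairs of mt-Co3 and Gm28437 and of mt-Atp6 and Gm10925 the ranges were 9.09% to 70.7% and 12.7% to 80.9%, for mt-Nd3 and Gm28438 they were 43.8% to 78.6%, and for mt-Nd4l and Gm10222 20.1% to 100%. Of these 5 copies, Gm28438 had the smallest ratio of its highest to its lowest part and Gm28437 the largest. For the abundant genes it stayed small, 0.023% to 0.293% with Gm28439 for mt-Nd4 and 0.054% to 0.353% with Gm29216 for mt-Co1.

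The 560 genes that differed between the genotypes over the whole table made up 3.49% of the 16061 tested (edgeR quasi-likelihood test, Benjamini-Hochberg adjusted p under 0.05), and 0 of the 19 mitochondrial genes tested were among them. These were all 13 messages, both rRNAs and 4 tRNAs, while the other 18 genes, all tRNAs, did not pass the filter on low counts. At an unadjusted p under 0.05 edgeR had 1 mitochondrial gene, mt-Tt, against 26.7% of all genes. DESeq2 called 0 of 21 (13.1% of all genes), and limma voom called 2 of 19, mt-Tt and mt-Tp (27.9% of all genes). None of the 19 had groups that did not overlap, against 16.4% of all genes. The log2 fold changes ran from −1.35 to 0.78, with 6 above 0 and 13 below, and their median was −0.19 against 0.04 over all genes. With a GC trend of each library as an offset, 1 was above 0 and 18 below, the median was −0.84, and 0 were called (adjusted p at least 0.0522, edgeR).

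The fold changes of the mitochondrial genes had larger SEs than is typical of all genes, which bounds what this comparison can show. Their median SE on the log2 scale was 0.518, against 0.317 over all genes tested. For mt-Co1, with at least 3238 CPM in each library, the 95% interval of the log2 fold change still reached from −1.06 to 0.74. The missing calls therefore do not show that the levels were alike.

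mt-Rnr1 was read at 352, 178, 344 and 216 CPM in wild-type tumors and at 400.3, 105, 288 and 131 CPM in ΔAgo2 tumors (log2 fold change −0.24, SE 0.41, edgeR adjusted p = 0.732). mt-Rnr2 was read at 296, 135, 250.4 and 241 CPM and at 232, 149.5, 291 and 136 CPM (log2 fold change −0.19, SE 0.31, edgeR adjusted p = 0.713). Each genotype had libraries at both ends of the range. The log2 ratio of the rRNAs, which share a promoter, was 0.24 ± 0.28 in wild-type and 0.05 ± 0.54 in ΔAgo2 tumors (SD, n = 4 each), a difference of −0.19 (exact two-sided permutation test over 70 assignments, p = 0.629). With 4 libraries against 4 this permutation test cannot give a p below 0.0286.

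Among the subunits of complex I, the complex that receives electrons from NADH, mt-Nd5 had the lowest log2 fold change of the messages. It was read at 2424, 1719, 3098 and 1755 CPM in wild-type tumors and at 346, 1385, 2087 and 896 CPM in ΔAgo2 tumors. The highest ΔAgo2 library lay above the lower pair of wild-type libraries, and the other 3 lay below all wild-type libraries. The log2 fold change was −0.93 (SE 0.45, adjusted p = 0.214, edgeR quasi-likelihood test with Benjamini-Hochberg adjustment). It kept its sign without each library in turn, from −1.36 to −0.63, and was −1.81 with a GC trend of each library as an offset (adjusted p = 0.0522).

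mt-Nd4, its neighbour upstream, was read at 4076, 639, 3164 and 1543 CPM in wild-type tumors and at 1054, 1066, 2243 and 842 CPM in ΔAgo2 tumors (log2 fold change −0.86, SE 0.51, edgeR adjusted p = 0.299). Here wild-type replicate 2 was the lowest of all 8 libraries. mt-Nd1 was read at 5766, 679, 4433 and 792 CPM and at 1455, 2258, 3820.4 and 1864 CPM (log2 fold change −0.31, SE 0.64, edgeR adjusted p = 0.775). mt-Nd2 was read at 2320.4, 488, 2087 and 527 CPM and at 358, 1197, 1683 and 700.4 CPM (log2 fold change −0.46, SE 0.59, edgeR adjusted p = 0.629). In both, wild-type replicates 1 and 3 lay above all ΔAgo2 libraries and replicates 2 and 4 at or near the bottom.

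mt-Nd6, read from the other strand, did not follow the libraries in this way. It was read at 22.4, 20.4, 18.5 and 41.1 CPM in wild-type tumors and at 46.4, 21.02, 18.9 and 4.54 CPM in ΔAgo2 tumors (log2 fold change −0.17, SE 0.54, edgeR adjusted p = 0.863). Its highest levels were in ΔAgo2 replicate 1 and wild-type replicate 4, the libraries with the fewest heavy-strand messages. The log2 ratio of mt-Nd6 to its neighbour mt-Nd5 was −6.76, −6.40, −7.38 and −5.42 in wild-type tumors and −2.90, −6.04, −6.79 and −7.62 in ΔAgo2 tumors, so that ΔAgo2 replicate 1 stood far above the rest. The difference of the means was 0.65 (exact two-sided permutation test, p = 0.714), and it was −0.33 without that library. The kit keeps strand, but whether counting used it is not given in the sources used here, so antisense reads over mt-Nd5 and mt-Nd6 cannot be told from sense reads.

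The scarce complex I messages mt-Nd3 and mt-Nd4l were read at 0.381 to 1.11 CPM and at 0 to 1.18 CPM over the 8 libraries. Their log2 fold changes were 0.0039 (SE 0.43, edgeR adjusted p = 0.996) and −0.21 (SE 0.66, edgeR adjusted p = 0.862). mt-Nd4l had 0 counts in wild-type replicate 4, which at that depth allows up to 0.430 CPM. With the counts of its copy added, the log2 fold change of mt-Nd3 was −0.59.

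mt-Cytb, the core of complex III, was read at 6445, 1081, 7098 and 1404 CPM in wild-type tumors and at 2119.8, 3438, 5307 and 2874 CPM in ΔAgo2 tumors (log2 fold change −0.22, SE 0.58, edgeR adjusted p = 0.826). The ΔAgo2 libraries again lay between the 2 wild-type pairs. mt-Co1 was read at 11759, 5983, 14854 and 3238 CPM and at 4060.4, 9143, 10658 and 8179 CPM (log2 fold change −0.16, SE 0.46, edgeR adjusted p = 0.843). It was the most counted message in each of the 8 libraries. The log2 ratio of mt-Co1 to mt-Nd1 was 1.99 ± 0.88 in wild-type and 1.78 ± 0.35 in ΔAgo2 tumors (SD, n = 4 each; difference −0.21, exact two-sided permutation test, p = 0.686). Adjusted over the 3 ratios compared, each permutation p was 0.714.

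The near-fully copied messages of complexes IV and V had log2 fold changes above 0. mt-Co2 was read at 34.6, 7.15, 31.8 and 5.73 CPM in wild-type tumors and at 22.2, 19.1, 32.2 and 28.2 CPM in ΔAgo2 tumors (log2 fold change 0.34, SE 0.52, edgeR adjusted p = 0.695). mt-Co3 was read at 15.2, 4.77, 22.6 and 3.44 CPM and at 11.9, 13.2, 20.2 and 23.0 CPM (log2 fold change 0.54, SE 0.51, edgeR adjusted p = 0.508). The subunit a of the ATP synthase, mt-Atp6, was read at 8.40, 3.29, 13.5 and 2.44 CPM and at 5.91, 10.7, 13.4 and 15.4 CPM (log2 fold change 0.68, SE 0.50, edgeR adjusted p = 0.385). In all 3 the lowest libraries were wild-type replicates 2 and 4, and the groups overlapped.

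This direction turned when the copies were added, and also under the GC trend (mt-Co2 −0.18, mt-Co3 −0.0098 and mt-Atp6 −0.058). Gm28661 was read at 50.8, 1.76, 39.2 and 13.6 CPM in wild-type tumors and at 12.5, 15.8, 29.8 and 6.36 CPM in ΔAgo2 tumors (log2 fold change −0.73, SE 0.76, edgeR adjusted p = 0.550). No copy was called, the adjusted p of the 9 tested running from 0.285 to 0.615. With the counts of the copies added to the genes they copy, the log2 fold changes became −0.15 for mt-Co2, −0.08 for mt-Co3 and −0.12 for mt-Atp6. mt-Atp8, a small ATP synthase subunit with 0 to 1.47 CPM, had a log2 fold change of 0.63 (SE 0.75, edgeR adjusted p = 0.605), and −0.50 under the GC trend.

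Within the mitochondrial messages, the make-up varied between libraries of the same genotype, and the groups overlapped for each of the 6 abundant messages. mt-Co1 made up 34.8% to 56.3% of the message counts in wild-type and 41.2% to 53.0% in ΔAgo2 tumors. mt-Nd5 made up 7.37%, 16.2%, 8.90% and 18.8% in wild-type tumors and 3.65%, 7.47%, 8.06% and 5.81% in ΔAgo2 tumors. Its means were 12.8% ± 5.56 and 6.25% ± 1.97 (SD, n = 4 each), a difference larger than either SD. The mt-Nd5 share was highest in wild-type replicates 2 and 4, where the total was low. ΔAgo2 replicate 1, where the total was low too, had the lowest mt-Nd5 share, 3.65%. The groups overlapped only through wild-type replicate 1. All complex I messages together made up 41.2% ± 7.52 and 33.1% ± 4.26 (SD, n = 4 each).

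The 5 near-fully copied genes made up 0.182%, 0.151%, 0.202% and 0.135% of the message counts in wild-type tumors and 0.430%, 0.240%, 0.259% and 0.444% in ΔAgo2 tumors. These groups did not overlap, and neither did those of mt-Atp6 (0.0255% to 0.0388% and 0.0518% to 0.0996%) or mt-Co3 (0.0369% to 0.0650% and 0.0711% to 0.149%) on the same scale, while the groups of the other 11 messages did. In CPM, none of the 13 messages had groups without overlap, against 16.4% of all genes. The 2 of 13 messages without overlap as shares of the message counts have no such background, since none was computed on that scale. The shares of the 5 genes, mt-Atp6 and mt-Co3 are given without a test, as shares of a summed class chosen with these data in view. The nuclear copies on chromosome 1 showed no such split, with 0.0695% to 0.537% and 0.152% to 0.375% of copies and messages together.

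**Figure D3:**
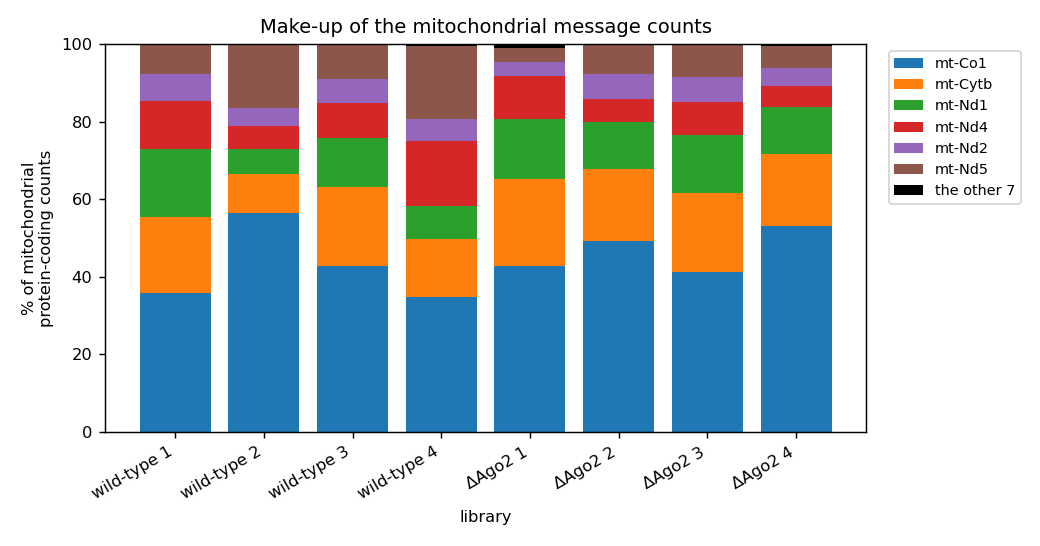
Percent of the mitochondrial protein-coding counts of each library (y axis) held by each of the 6 abundant messages and by the other 7 together. mt-Co1 is the largest piece in every library, and mt-Nd5 is largest in wild-type replicates 4 and 2, at 18.8% and 16.2%.

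The tRNA genes were barely read. Of the 22, 13 had 0 counts in all libraries and 9 had at least 1, with 83 counts as the highest value. The genes are 59 to 75 bases long, shorter than the 100-base reads. mt-Ti, mt-Ta, mt-Ty and mt-Te had at most 13 counts in a library, and mt-Tq, the glutamine tRNA, had 0 to 55 counts and did not pass the filter.

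The 3 tRNA genes with the lowest and highest fold changes or calls by another tool are shown whole, mt-Tt (threonine; chrM:15289-15355, plus strand, beginning at the base after mt-Cytb ends), mt-Tp (proline; chrM:15356-15422, minus strand, next to mt-Tt) and mt-Tw (tryptophan; chrM:4950-5016, plus strand). They carry no capitals.
mt-Tt: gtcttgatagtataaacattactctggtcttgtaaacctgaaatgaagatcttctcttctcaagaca
mt-Tp: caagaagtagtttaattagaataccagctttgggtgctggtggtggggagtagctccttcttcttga
mt-Tw: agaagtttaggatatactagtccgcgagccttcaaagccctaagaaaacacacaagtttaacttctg

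mt-Tt had 30, 15, 12 and 7 counts in wild-type and 13, 17, 9 and 69 counts in ΔAgo2 tumors, which gave 0.562, 0.715, 0.252 and 1.00 CPM and 0.267, 0.149, 0.269 and 0.242 CPM. Wild-type replicate 3 lay within the ΔAgo2 range and the other 3 wild-type libraries lay above it. Its log2 fold change was −1.35 (SE 0.49, adjusted p = 0.123, edgeR quasi-likelihood test), and limma voom with quality weights gave −1.05 (adjusted p = 0.0445). The value without each library in turn stayed between −1.66 and −1.13.

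mt-Tp had 0.768, 0.429, 0.147 and 0.430 CPM in wild-type and 0.882, 0.202, 0.507 and 0.0665 CPM in ΔAgo2 tumors (log2 fold change −0.19, SE 0.78, edgeR adjusted p = 0.892), while limma voom gave −2.21 (adjusted p = 0.0499). The libraries of both groups were interleaved. mt-Tw, with 0 to 0.439 CPM, had a log2 fold change of 0.78 (SE 0.52, edgeR adjusted p = 0.341), and mt-Tm, the methionine tRNA with 0 to 0.843 CPM, had −0.74 (SE 0.87, edgeR adjusted p = 0.596). These tRNA genes had at most 83 counts in a library, and the intervals bound what their values can show.

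**Figure D4:**
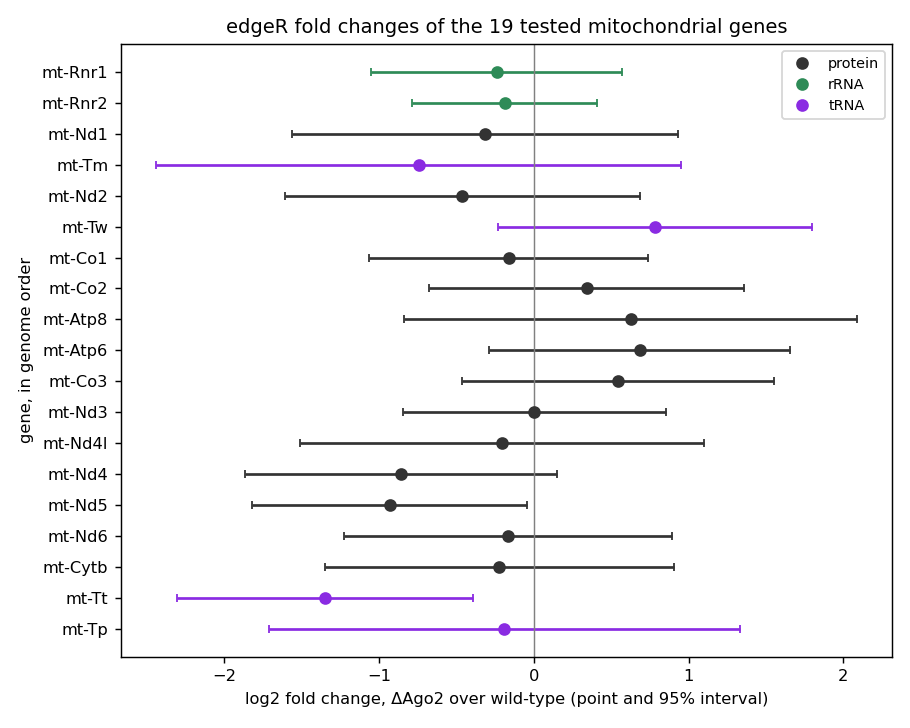
Log2 fold change of ΔAgo2 over wild-type tumors (x axis) for the 19 mitochondrial genes tested, in genome order; points are edgeR estimates and bars are ± 1.96 SE, drawn per gene and not adjusted. The bars of mt-Tt and mt-Nd5 do not reach 0, although neither passed the adjusted test (adjusted p = 0.123 and 0.214). For mt-Nd5 the unadjusted p was 0.0651 as well (edgeR quasi-likelihood test). The factor 1.96 takes no account of the degrees of freedom of that test, so the bars are too narrow. In all, 13 of the 19 points lie below 0.

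The nuclear genes that supply the rest of the chain gave 0 calls too. Of 75 nuclear OXPHOS subunits, all 75 were tested and edgeR called 0, with 6 at an unadjusted p under 0.05, while DESeq2 called 3 and limma voom 29. These were 8.0%, 4.0% and 38.7% of the subunits, against 26.7%, 13.1% and 27.9% of all genes by the same rules. The median log2 fold change was −0.15, with 31 above 0 and 44 below. By complex, the median was −0.19 for 36 subunits of complex I, 0.07 for 4 of complex II, 0.19 for 9 of complex III, 0.01 for 11 of complex IV and −0.26 for 15 of complex V. Cyc1 (cytochrome c1; log2 fold change −0.97, edgeR adjusted p = 0.0869), Ndufa4 (1.29, 0.0955) and Cox7b (0.89, 0.101) were the 3 that DESeq2 called, and were named after their values were seen.

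The nuclear OXPHOS genes summed to 11666, 11313, 11291 and 15338 CPM in wild-type tumors and to 16616, 7549.6, 9604 and 8867 CPM in ΔAgo2 tumors. The mitochondrial messages summed to 32872, 10625, 34824 and 9313 CPM and to 9481, 18554, 25883 and 15428 CPM. The 2 libraries with the highest nuclear sums, ΔAgo2 replicate 1 and wild-type replicate 4, had the lowest mitochondrial sums. The ratio of the mitochondrial to the nuclear sum was 1.86 ± 1.27 in wild-type and 1.87 ± 0.954 in ΔAgo2 tumors (SD, n = 4 each), with values from 0.607 to 3.08 and from 0.571 to 2.70. Without ΔAgo2 replicate 1, edgeR called 20 nuclear OXPHOS genes, all lower in ΔAgo2 tumors, and still 0 mitochondrial genes. That fit called 1793 of 16301 genes (11.0%), of which 814 were lower (4.99% of those tested).

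**Figure D5:**
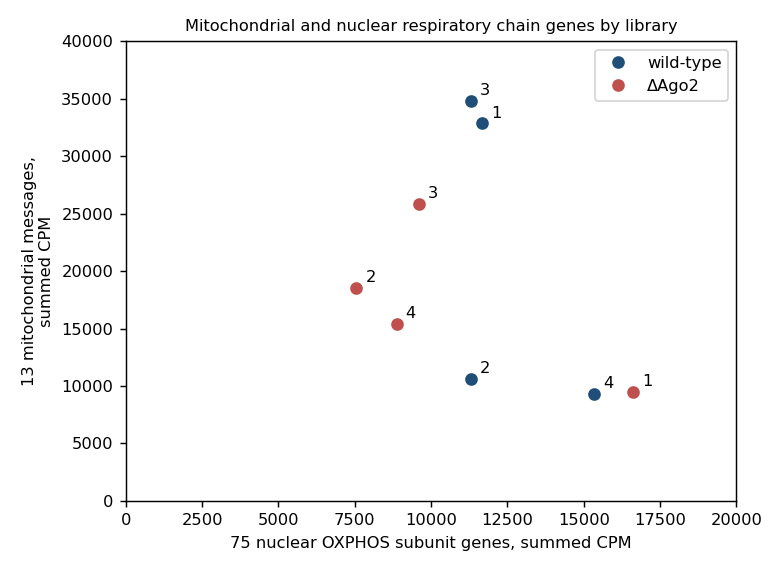
Summed CPM of 13 mitochondrial messages (y axis) against summed CPM of 75 nuclear OXPHOS subunit genes (x axis), with 1 point per library and its replicate number. ΔAgo2 replicate 1 and wild-type replicate 4 lie farthest to the right and lowest, and the genotypes are mixed along the y axis.

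Over 12 lists of nuclear genes for the OXPHOS complexes, the mitochondrial ribosome and the upkeep and expression of mitochondrial DNA, 214 of 220 genes were tested and 1 was called. This was Top1mt, the mitochondrial topoisomerase, with 14.9, 16.0, 16.9 and 22.6 CPM in wild-type and 10.1, 6.92, 8.54 and 6.65 CPM in ΔAgo2 tumors. All ΔAgo2 values lay below all wild-type values, and the log2 fold change was −1.12 (SE 0.24, adjusted p = 0.0329, edgeR quasi-likelihood test). Groups without overlap, in either direction, were found in 21 of the 214 genes, against 16.4% of all genes. Polrmt and Supv3l1, given below, were among these 21. The call was lost without wild-type replicate 2 or 4 or ΔAgo2 replicate 2, 3 or 4 (edgeR adjusted p from 0.0775 to 0.145) and with the replicate number as a block (0.151). Of the mitochondrial ribosomal proteins, 77 were tested and 0 called by edgeR, with 8 at an unadjusted p under 0.05, 2 called by DESeq2 and 26 by limma voom. These were 10.4%, 2.6% and 33.8%, against the same 26.7%, 13.1% and 27.9% of all genes.

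Of 9 genes for the transcription of mitochondrial DNA, edgeR called 0, with 1 at an unadjusted p under 0.05, and DESeq2 and limma voom called 1 each. Each such count of 1 was 11.1% of the list, against 26.7%, 13.1% and 27.9% of all genes by the same rules. Their log2 fold changes were above 0 in 8 and below 0 in 1, with a median of 0.26. The gene below 0 was Polrmt. Polrmt, the mitochondrial RNA polymerase, was read at 50.7, 103, 44.8 and 92.9 CPM in wild-type and at 35.1, 39.0, 40.6 and 36.1 CPM in ΔAgo2 tumors, with every ΔAgo2 value below every wild-type value (log2 fold change −0.95, SE 0.28, edgeR adjusted p = 0.0798). Of the 3 libraries with low mitochondrial shares, wild-type replicates 2 and 4 were the highest in Polrmt and ΔAgo2 replicate 1 was the lowest. Tfam, which packages and activates mitochondrial DNA, had a log2 fold change of 0.37 (SE 0.22, edgeR adjusted p = 0.299), and Tfb2m, which opens the promoter, had 0.16 (SE 0.26, edgeR adjusted p = 0.718). Ppargc1a, a coactivator of mitochondrial biogenesis, had 0 to 15 counts and was not tested.

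Among the genes for stability and removal of mitochondrial RNA, Lrpprc and Slirp, which together bind and stabilize the messages, had log2 fold changes of 0.20 (SE 0.20, edgeR adjusted p = 0.525) and 0.79 (SE 0.47, edgeR adjusted p = 0.295). Slirp was read at 43.5, 9.34, 43.2 and 13.9 CPM in wild-type and at 73.9, 33.7, 45.6 and 39.0 CPM in ΔAgo2 tumors. It was lowest in wild-type replicates 2 and 4, as were 5 of the 12 heavy-strand messages (mt-Nd1, mt-Cytb, mt-Co2, mt-Co3 and mt-Atp6). Tfam, Tfb2m, Lrpprc and Pnpt1 were also lowest in the same libraries, whereas Polrmt and Supv3l1 were not. Slirp was highest in ΔAgo2 replicate 1, where the message share was close to the lowest. Pnpt1 was read at 62.7, 26.3, 64.9 and 23.7 CPM and at 57.04, 108, 76.1 and 90.8 CPM (log2 fold change 0.90, SE 0.36, edgeR adjusted p = 0.145). Supv3l1 was read at 35.0, 33.2, 34.3 and 33.3 CPM and at 30.6, 29.7, 33.0 and 29.6 CPM, without overlap (log2 fold change −0.14, SE 0.17, edgeR adjusted p = 0.600). Neither gene of the double-stranded RNA decay pair passed the test.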

How the data were processed

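Tumors had been lysed in TRIzol, and stranded mRNA libraries were sequenced on a NovaSeq in paired-end mode with reads of 100 bases. The authors deposited raw counts, whole numbers per gene and library, and TPM values, which they scaled by gene length to the same sum in each library. The labels name STAR and mm10; the study's methods describe, for cultured cells, alignment to ribosomal RNAs first and counting with featureCounts. The annotation release, strand setting and handling of multi-mapped reads are not given in the sources used here. Groups came from the sample titles. Of 55487 identifiers, 99.29% matched GENCODE M21 with their version, including all 37 mitochondrial genes.

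The counts of all 8 libraries were filtered with filterByExpr, TMM-scaled and fitted without covariates by edgeR 4.0.16 (glmQLFit and glmQLFTest, R 4.3.3), with Benjamini-Hochberg adjustment over all 16061 genes tested and a threshold of 0.05. The intervals, 95% in name, are estimates ± 1.96 SE. They take no account of the degrees of freedom of the edgeR test and are therefore too narrow. Class shares are percentages of all gene counts and carry no test. Ratios of mitochondrial genes were compared by permuting the genotypes over all 70 assignments (exact, two-sided). Nuclear copies were searched among annotated transcripts (GRCm38) as exact windows of 100 bases. Alternatives were DESeq2 1.42.0, limma 3.58.1 (voom with sample quality weights, and log2 of TPM plus a pseudocount of 1 or 0.1), other scalings and filters, binomial thinning to 7903288 counts, a GC trend, a replicate block and leaving out each library. The scripts were tested on simulated data. Named were all 13 messages, both rRNAs, tRNAs with a mean of at least 10 counts, 8 regulators chosen by name, called genes of the lists and the annotated copies.

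The genes and lists were chosen with earlier results of these data known. Same-numbered libraries did not deviate together (correlations of deviations −0.236, 0.103, −0.0448 and −0.290), and no label says that a number pairs samples. Libraries of 1 group differed in each pair by more than sampling 1 library again would give (chi-square per degree of freedom at least 42.8). These values cannot tell separate libraries of 1 tumor from libraries of different tumors. Nothing beyond the sample titles says that the tumors of a group were handled separately, so p-values measure the spread between these libraries. Limits from a count of 0 cover counting error only, while the intervals also hold the spread between libraries. Totals ranged from 7903288 to 268564145 counts.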

Additional observations from a re-analysis of the deposited data

Results flagged for a closer look

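In groups of 4, Dixon's gap test marked 2 of the 52 groups examined (CPM of the 19 tested mitochondrial genes, 4 shares of the library and the 3 ratios, in each genotype), where about 2.6 would be marked by chance. mt-Nd4 in ΔAgo2 replicate 3 was at 2243 CPM against 842 to 1066 CPM in the other ΔAgo2 libraries. mt-Nd6 in wild-type replicate 4, the shallowest library, was at 41.1 CPM against 18.5 to 22.4 CPM in the other wild-type libraries.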

How the results depend on the processing

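The depth of the shallowest library, 7903288 counts, limits which genes can be tested: after thinning all libraries to that total 12 mitochondrial genes passed the filter, 0 of them called. Over 25 alternatives, 399 of 461 fold changes of single mitochondrial genes kept their direction and their side of the threshold, 3 passed the threshold (mt-Tt and mt-Tp by limma voom, mt-Nd5 under the GC trend with the block) and 59 changed sign. The cause was not tested for any of these.

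Mitochondrial genes called numbered 2 by limma voom and 1, mt-Nd5 (log2 fold change −2.10, adjusted p = 0.0427), with the GC trend and replicate block together, and 0 without each library. The same-numbered libraries were not shown to be pairs: with the replicate block edgeR called 70 genes, all among the 560, 0 mitochondrial genes and 0 in the related lists, and mt-Nd1 (0.24) and mt-Cytb (0.19) changed sign, while the block left the ratios at −0.19, 0.65 and −0.21 (exact sign-flip p = 0.750, 0.625 and 0.750).

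Genes changed over the table numbered 2265 by DESeq2, 4476 by voom, 983 without a filter, 305 with block and GC trend, 153, 107 and 77 by limma on TPM (pseudocount 1, 0.1, and 1 unfiltered), 52 without both depth extremes (WT and ΔAgo2 replicates 4; chosen after seeing the data), and 88 to 1793 without each library. Nuclear OXPHOS calls were 3, 29 and 1 by DESeq2, voom and without a filter, and 0 to 20 without each library. Calls in the 12 lists were 10, 68 and 2 in that order, 0 with block and GC trend, by the 3 TPM fits and without both depth extremes, and 0 to 37 without each library.

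The GC trend moved the median of the 19 fold changes from −0.19 to −0.84 (all genes 0.00) and turned mt-Atp6 (−0.058), mt-Atp8 (−0.50), mt-Co2 (−0.18), mt-Co3 (−0.0098) and mt-Nd3 (−1.01); with the block mt-Atp6, mt-Atp8, mt-Co2 and mt-Nd3 were at −0.059, −0.53, −0.086 and −1.04. Adding the nuclear copies, chosen after seeing the data, turned mt-Atp6 (−0.12), mt-Co2 (−0.15), mt-Co3 (−0.083) and mt-Nd3 (−0.59). Without both depth extremes mt-Co2 (−0.0034), mt-Nd3 (−0.11), mt-Nd6 (0.49) and mt-Tp (0.21) turned. mt-Nd3 also turned with DESeq2 size factors (−0.012) and upper quartile scaling (−0.073), and mt-Nd4l by voom (0.027). On TPM, where the median of all genes was itself 0.21 (pseudocount 1), 0.28 (0.1) and 0.03 (1 unfiltered), the values were 0.20 in all 3 for mt-Co1, 0.39 for mt-Cytb, 0.41 for mt-Nd1, 0.015 for mt-Rnr2, 0.38, 1.04 and 0.38 for mt-Nd4l, and 1.01, 2.54 and 1.01 for mt-Tm. The tRNA share difference was −0.00151 percentage points on TPM, and the share differences stayed within 1 SD under the other alternatives, adding the nuclear copies included.

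Without each library in turn, 9 of 19 genes changed sign at least once: mt-Atp8 −0.20 to 1.24, mt-Co1 −0.44 to 0.20, mt-Cytb −0.54 to 0.21, mt-Nd1 −0.65 to 0.27, mt-Nd3 −0.22 to 0.34, mt-Nd4l −0.48 to 0.20, mt-Nd6 −0.79 to 0.19, mt-Tm −1.12 to 0.0094 and mt-Tp −0.98 to 0.39. The ratio differences ran from −0.43 to 0.0012 (mt-Rnr1 to mt-Rnr2, above 0 without ΔAgo2 replicate 2), −0.33 to 1.25 (mt-Nd6 to mt-Nd5, below 0 without ΔAgo2 replicate 1) and −0.53 to 0.18 (mt-Co1 to mt-Nd1, above 0 without wild-type replicate 2). The difference in mitochondrial share ran from −0.842 to 0.0613 percentage points.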
